A study of Mus musculus with 235 samples.

Results

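The genes described here are those of the constitutive proteasome and its main regulators, 39 of the 18146 genes measured in mouse liver. They are the 14 core subunits (Psma1 to Psma7 and Psmb1 to Psmb7), the 6 ATPases of the base (Psmc1 to Psmc6), 14 Psmd subunits and chaperones of the regulatory particle, the assembly factors Psmg1, Psmg2 and Pomp, the transcription factor Nfe2l1 and the segregase Vcp. Members were taken by gene symbol, and where several probe sets carried only that symbol, the one that stood for the gene was selected on its mean level over all arrays, the highest being used. The family was chosen with its isoniazid response in these arrays already known, so the counts of members below describe the family and are not independent evidence about it. All 39 had a probe set, and all 39 lay above the level that 40% of the genes fell under (4.47 on the log2 scale).

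RNA came from 1 lobe (the left) of the liver of female mice, 8 to 10 weeks old at the start, which belonged to 31 inbred strains. Vehicle animals received sterile water by gavage, and treated animals received isoniazid, a drug against tuberculosis with known liver toxicity, at 100 mg/kg once a day for 3 days. Tissue was taken 24 hours after the last dose. There were 235 arrays, 124 of vehicle and 111 of isoniazid livers. Every strain had 4 vehicle arrays. Of isoniazid arrays 22 strains had 4, 5 had 3 and 4 had 2, because animals that died during the study were left out. The submitters coded 13 strains as developing steatosis, an accumulation of fat in the liver, under the drug and 18 as not. Every strain is inbred and only females were studied. No genetic manipulation is named in the labels, and PWK/PhJ is a wild-derived strain. Values are log2 RMA signals of whole tissue, so a change in the RNA of each cell and a change in the make-up of the tissue cannot be told apart. Levels of different probe sets are not compared with each other.

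The proteasome is the protease complex that degrades proteins tagged with ubiquitin. Its core particle is a barrel of alpha rings and beta rings, and the beta subunits Psmb5, Psmb6 and Psmb7 carry the chymotrypsin-like, caspase-like and trypsin-like active sites. The regulatory particle caps the barrel: the ATPase ring of the base unfolds the substrate, and the lid removes the ubiquitin chain before entry. Nfe2l1 is a transcription factor anchored in the endoplasmic reticulum. It is pulled out of the membrane with the help of Vcp and trimmed. When proteasome activity falls, it activates the genes of the proteasome subunits through antioxidant-response-type elements.

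Such an element has the core TGACNNNGC, where N is any base. RefSeq windows from 250 bases before to 50 bases after the annotated start of transcription (GRCm38.p6) were found for 32 of the 39 genes. On either strand, 6 of the 32 (18.8%) held the core, against 14% of 27025 genes with such a window. CCAAT, the box bound by NF-Y, was present on either strand in 13 of the 32 (40.6%), against 41.1% of genes, so both shares lay near that of all promoters. The 6 windows with the core are shown because they hold the letters that the known regulator of these genes reads. Each runs 5′ to 3′ on the strand of its gene, with the match in capitals: Vcp (chr4:43000458-43000757, minus strand), Psmb6 (chr11:70525107-70525406, plus strand), Psmd12 (chr11:107479278-107479577, plus strand), Psmd9 (chr5:123227940-123228239, plus strand), Psmc6 (chr14:45329574-45329873, plus strand) and Psmb5 (chr14:54617946-54618245, minus strand).
Vcp: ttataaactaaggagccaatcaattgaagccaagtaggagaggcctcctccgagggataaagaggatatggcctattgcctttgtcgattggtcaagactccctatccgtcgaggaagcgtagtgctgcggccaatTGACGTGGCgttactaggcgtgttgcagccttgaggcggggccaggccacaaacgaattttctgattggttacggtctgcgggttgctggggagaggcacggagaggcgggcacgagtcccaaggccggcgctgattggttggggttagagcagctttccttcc
Psmb6: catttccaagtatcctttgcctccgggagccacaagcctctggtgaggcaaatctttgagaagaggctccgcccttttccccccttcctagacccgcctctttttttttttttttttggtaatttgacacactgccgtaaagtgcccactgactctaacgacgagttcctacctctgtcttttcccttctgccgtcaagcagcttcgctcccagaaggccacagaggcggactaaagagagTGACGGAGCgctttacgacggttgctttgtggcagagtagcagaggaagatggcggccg
Psmd12: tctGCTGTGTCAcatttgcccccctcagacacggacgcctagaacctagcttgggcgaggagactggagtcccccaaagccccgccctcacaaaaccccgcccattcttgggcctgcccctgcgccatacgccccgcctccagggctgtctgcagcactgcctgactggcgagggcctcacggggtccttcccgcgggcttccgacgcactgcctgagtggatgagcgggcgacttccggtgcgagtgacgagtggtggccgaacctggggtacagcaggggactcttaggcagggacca
Psmd9: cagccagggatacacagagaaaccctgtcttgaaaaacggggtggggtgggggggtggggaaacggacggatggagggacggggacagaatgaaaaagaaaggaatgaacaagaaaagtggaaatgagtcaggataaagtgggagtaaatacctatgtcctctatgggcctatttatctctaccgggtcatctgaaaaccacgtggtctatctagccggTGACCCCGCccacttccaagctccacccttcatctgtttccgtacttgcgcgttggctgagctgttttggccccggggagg
Psmc6: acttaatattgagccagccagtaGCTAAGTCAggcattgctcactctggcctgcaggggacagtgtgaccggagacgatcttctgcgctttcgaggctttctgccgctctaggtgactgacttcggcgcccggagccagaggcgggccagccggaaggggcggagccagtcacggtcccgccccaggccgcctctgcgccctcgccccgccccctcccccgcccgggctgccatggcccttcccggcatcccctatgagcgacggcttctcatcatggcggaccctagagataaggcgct
Psmb5: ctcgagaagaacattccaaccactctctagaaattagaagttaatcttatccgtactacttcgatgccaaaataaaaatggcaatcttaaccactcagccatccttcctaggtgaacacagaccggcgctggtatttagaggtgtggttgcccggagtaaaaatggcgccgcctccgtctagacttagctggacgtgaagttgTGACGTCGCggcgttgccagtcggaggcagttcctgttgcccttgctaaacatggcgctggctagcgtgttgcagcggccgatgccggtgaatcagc
In Vcp the match began 114 bases before the start used for its window, in Psmb5 47, in Psmd9 31 and in Psmb6 9. The annotated gene Psmb6 begins farther upstream, at chr11:70525324, so its match lies downstream of that position. In Psmd12 and Psmc6 the match lay on the opposite strand, so the capitals show the reverse complement of the core. A match is a string of letters, not a shown site of binding.

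Some arrays were set apart by the spread of their values. The SDs of the arrays were sorted, and arrays under the largest gap among the SDs below the median were called narrow-spread. This rule sets some arrays apart in any data. On 21 arrays, 11 of vehicle and 10 of isoniazid livers, the values over all probe sets had a narrower spread (SD at most 2.20) than on any other array (SD at least 2.23). The proteasome genes were low on them: the median over the 39 genes was below that of the other arrays of the same strain and treatment on 20 of the 21, by a median of -0.26 and as far as -0.51 in LP/J. The same median over all genes on these arrays lay between -0.10 and 0.00. The median probe set of an array had a value between 3.96 and 4.21, well below the levels of the members. Genes as bright as the members were not compared separately, so this does not show that the proteasome genes were particularly low there. These arrays were not spread evenly over the strains, so the strain medians, the counts within strains, and the strains named below as extremes for the members with the largest F are given with and without them. Within groups, pairs of arrays correlated at r between 0.955 and 0.995, and no 2 arrays held identical values. The mean of 7 hepatocyte genes lay between 11.59 and 12.88 in the vehicle liver of all 31 strains.

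Isoniazid was followed by higher levels of most proteasome genes. Over the 31 strains, 34 of the 39 members rose and 0 fell (limma on strain differences, adjusted p under 0.05 over all genes), and 38 had a mean change above 0. Over all genes, 10.2% were called higher, 9.85% lower and 20.0% in either direction. The median change of the members was 0.17 on the log2 scale, and that of all genes was 0.00. The changes were small: the largest, of Psmd14, was 1.27-fold. The plot of changes by gene shows all 39 with their intervals.

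**Figure D1:**
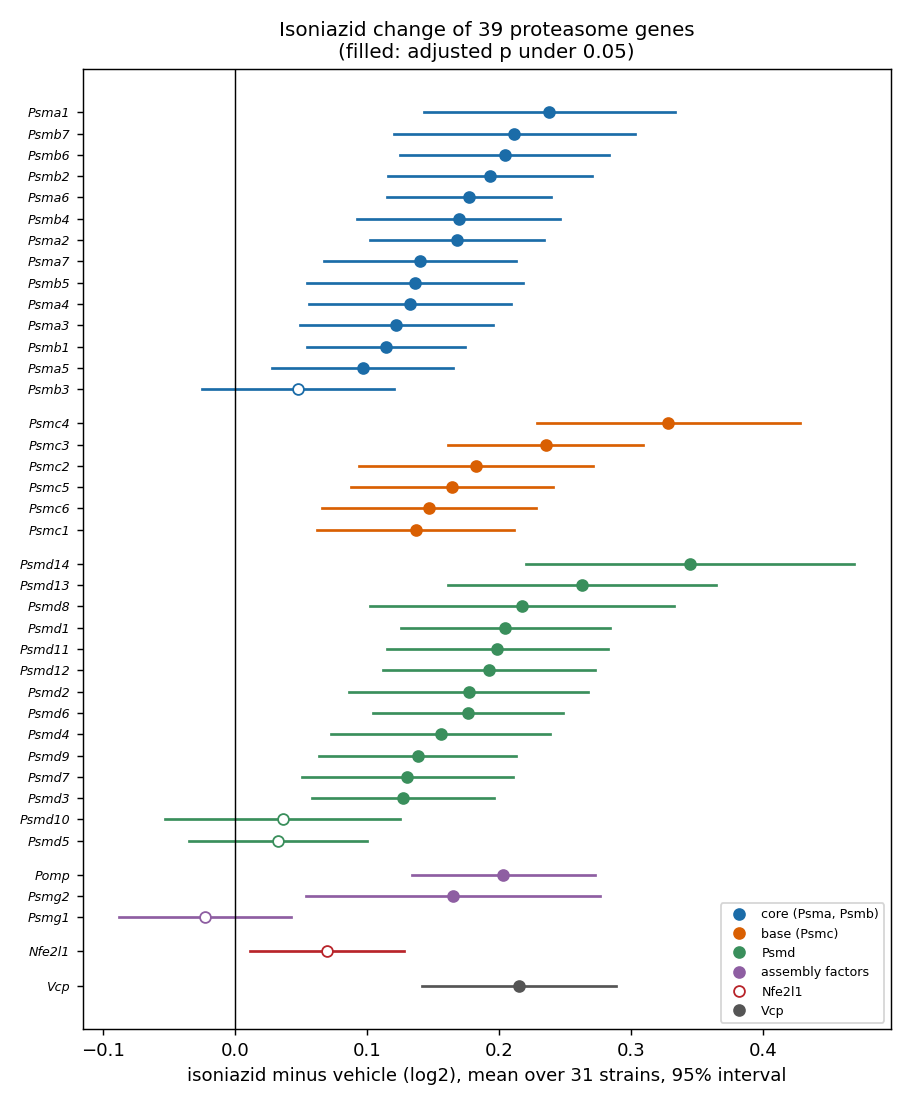
Change under isoniazid of the 39 proteasome genes, in log2 units, as the mean over 31 strains with its 95% interval. Filled points passed limma's adjusted p of 0.05, and open points (Psmb3, Psmd10, Psmd5, Psmg1 and Nfe2l1) did not. Psmd14 (0.34) and Psmc4 (0.33) lie farthest to the right, and Psmg1 (-0.02) is the only point left of 0.

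In the core, 13 of 14 subunits rose, with a median change of 0.15 and a range from 0.05 to 0.24. All 7 alpha subunits and 6 of 7 beta subunits passed. Psma6, a structural alpha subunit, ran from 10.44 in NZW/LacJ through a median of 10.72 to 10.98 in C58/J in vehicle liver, and from 10.52 in MRL/MpJ through 10.90 to 11.21 in C58/J under isoniazid. The ranges overlapped, but the isoniazid mean was the higher one in 27 of 31 strains. Its change was 0.18 ± 0.03 (SE, n = 31 strains; limma adjusted p = 4.06e-05).

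Psmb6, the caspase-like active site, had vehicle means from 9.22 in DBA/2J through 9.92 to 10.17 in MA/MyJ, and isoniazid means from 9.41 in SEA/GnJ through 10.05 to 10.58 in NZW/LacJ. Again the groups overlapped while the middle of the isoniazid group lay above that of the vehicle group, and the change was 0.20 ± 0.04 (adjusted p = 0.000159, limma), with 24 strains higher. Psma2, an alpha subunit, went from a median of 9.69 (9.46 to 10.03) to 9.89 (9.48 to 10.17), a change of 0.17 ± 0.03 (limma adjusted p = 0.000192), and 26 strains were higher. Its lowest strain was RIIIS/J with either treatment. Psmb2, a beta subunit without an active site, went from 9.31 (9.04 to 9.60) to 9.51 (9.18 to 9.81). That change was 0.19 ± 0.04 (limma adjusted p = 0.000235), with 23 strains higher.

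The other catalytic subunits rose as well. Psmb7, the trypsin-like site, changed by 0.21 ± 0.05 (limma adjusted p = 0.000597) and Psmb5, the chymotrypsin-like site, by 0.14 ± 0.04 (0.0124). The largest core change was that of Psma1, 0.24 ± 0.05. The exception in the core was Psmb3, a non-catalytic beta subunit: its vehicle means ran from 10.18 through 10.64 to 10.88, its isoniazid means from 10.18 through 10.68 to 11.03. These ranges overlapped almost wholly, and the change of 0.05 ± 0.04 did not pass (limma adjusted p = 0.414), with 19 strains higher and an interval from -0.02 to 0.12.

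Among the base ATPases, 6 of 6 rose, with a median change of 0.17. Psmc4 had the smallest p of all members. Its vehicle means ran from 8.64 in BALB/cJ through 9.10 to 9.35 in PWK/PhJ and its isoniazid means from 8.54 in RIIIS/J through 9.43 to 10.01 in NZW/LacJ. The median strain under isoniazid was above the highest vehicle strain. The change was 0.33 ± 0.05 (limma adjusted p = 4.81e-06), or 1.26-fold, with 28 strains higher, and a further probe set of Psmc4 gave 0.26 ± 0.04 with 23 strains higher. Psmc3 followed, from 9.76 (9.58 to 10.11) to 10.01 (9.70 to 10.39), a change of 0.24 ± 0.04 (limma adjusted p = 8.87e-06) with 27 strains higher.

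Psmc5 went from a vehicle median of 9.19 (8.32 to 9.47) to 9.36 (8.93 to 9.84), changing by 0.16 ± 0.04 (limma adjusted p = 0.00133), and PWK/PhJ was lowest with either treatment. Psmc2 went from 10.06 (9.71 to 10.43) to 10.20 (9.83 to 10.81) and changed by 0.18 ± 0.04 (limma adjusted p = 0.00207). Both were higher in 25 strains. The ATPase with the weakest evidence was Psmc6, from 9.34 (9.11 to 9.67) to 9.47 (9.13 to 9.89), whose change of 0.15 ± 0.04 still passed (limma adjusted p = 0.00642).

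Of the 14 Psmd genes, 12 rose, with a median change of 0.18. By function, the 8 lid subunits and the 3 scaffold or receptor subunits all rose, while of the 3 chaperones that help to build the base only Psmd9 did. Psmd14, the deubiquitinase of the lid, had vehicle means from 8.22 in DBA/2J through 8.58 to 9.05 in SM/J, and isoniazid means from 8.47 in RIIIS/J through 8.95 to 9.58 in NZW/LacJ. The lowest treated strain stood above the lowest vehicle strains, and the upper part of the treated group lay above every vehicle strain. Its change of 0.34 ± 0.06 (limma adjusted p = 6.35e-05) was the largest among the members, with 26 strains higher.

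Psmd13, a structural lid subunit, went from 8.79 (8.49 to 9.13) to 9.06 (8.70 to 9.49), changing by 0.26 ± 0.05 (limma adjusted p = 0.000156). Psmd1, the large scaffold of the base, went from 10.05 (9.75 to 10.28) to 10.28 (9.76 to 10.72), with a change of 0.21 ± 0.04 (limma adjusted p = 0.000152). MRL/MpJ was lowest for Psmd1 with either treatment. Psmd6, another lid subunit, went from 10.12 (9.74 to 10.51) to 10.27 (9.87 to 10.97) and changed by 0.18 ± 0.04 (limma adjusted p = 0.000292). The base chaperone Psmd10, also known as gankyrin, went from 6.59 (6.24 to 6.87) to 6.62 (5.98 to 6.98). Its change of 0.04 ± 0.04 did not pass (limma adjusted p = 0.648), nor did that of the base chaperone Psmd5 (0.03 ± 0.03, adjusted p = 0.567).

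The assembly factors of the core moved unequally. Pomp, the maturation protein of the beta ring, ran from 9.55 in C58/J through 10.24 to 10.43 in CE/J in vehicle liver and from 10.02 in C58/J through 10.38 to 10.83 in BTBR T+ tf/J under isoniazid, and C58/J stood well below the other strains without the drug. It rose by 0.20 ± 0.03 (limma adjusted p = 2.86e-05), with 26 strains higher. Psmg2 went from 6.99 (6.62 to 7.48) to 7.12 (6.66 to 8.18), a rise of 0.17 ± 0.05 (adjusted p = 0.0281, limma), with 21 strains higher. Leaving out DBA/2J or SM/J alone kept the change at 0.15 in each case and brought the adjusted p to 0.0502 and 0.0501 in limma. Psmg1, the partner of Psmg2 in one heterodimer, went from 8.11 (7.04 to 8.49) to 8.09 (7.37 to 8.33) and its change of -0.02 ± 0.03 did not pass (limma adjusted p = 0.709), with 14 strains higher.

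The RNA of the regulator itself showed a small difference that did not pass. Nfe2l1 had vehicle means from 7.26 in NON/LtJ through 7.66 to 8.26 in BALB/cJ, and isoniazid means from 7.54 in SJL/J through 7.72 to 8.15 in BALB/cJ. The treated range lay inside the vehicle range, and 20 strains were higher. Its change of 0.07 ± 0.03 did not pass (limma adjusted p = 0.0822). It passed when animals rather than strains were the replicates (limma adjusted p = 0.0245), without animals numbered 4 (0.0411), without RIIIS/J (0.0420) and without SM/J (0.0469). Vcp went from a median of 10.96 (10.71 to 11.34) to 11.19 (10.66 to 11.47), with the lowest treated strain, RIIIS/J, below every vehicle strain. Even so it rose by 0.22 ± 0.04 (limma adjusted p = 3.07e-05), in 24 strains.

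**Figure D2:**
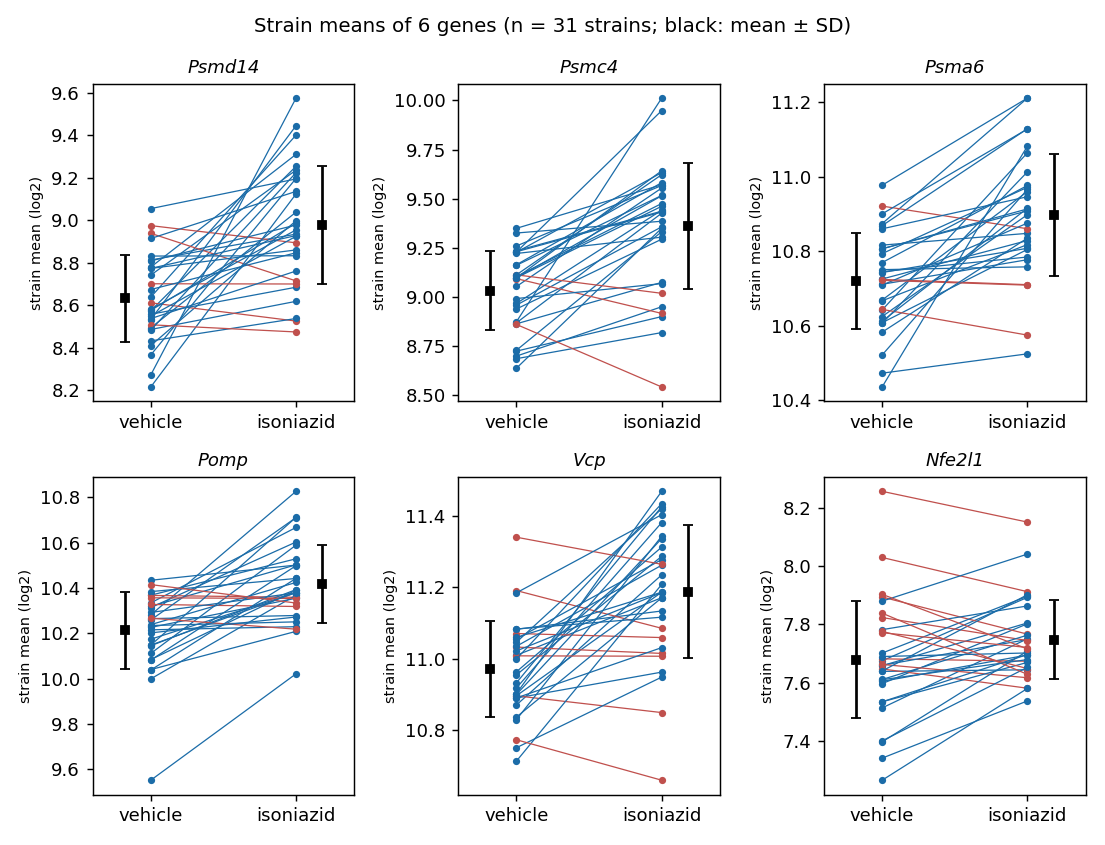
Strain means of 6 proteasome genes in vehicle and isoniazid liver, in log2 units, with each line joining 1 of 31 strains (blue where the isoniazid mean was higher, red where it was lower). Black squares and bars are the mean and SD over strains. Psmd14 and Psmc4 rise in 26 and 28 strains, while the lines of Nfe2l1 run both ways, 20 of them upward.

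The roles differed little in size. Averaged over the genes of each role within a strain, the core changed less than the base by 0.05 on the log2 scale (core minus base -0.05 ± 0.06, SD over 31 strains), and the core mean was the higher one in 6 strains. Core minus Psmd was -0.02 ± 0.06 and base minus Psmd 0.03 ± 0.07, the latter above 0 in 19 strains. Assembly factors minus core came to -0.04 ± 0.13, with 13 strains above 0. These differences are descriptions without a test.

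Where a member had several probe sets, they mostly moved alike. The 39 members had 79 probe sets, and 20 members had more than 1. Of the 40 not used above, 20 lay above the dim level, in 12 members. Of these 20, 18 changed in the direction of the probe set used and 12 were called higher (limma, adjusted over all probe sets, of which 7.28% were called higher), with changes from -0.04 to 0.26.

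The arrays were scanned on 10 dates, each with vehicle and isoniazid arrays. The median change of the members within a date was between 0.08 and 0.31 on 9 dates and -0.01 on the other one, where 19 members were above 0. On that other date the isoniazid arrays included narrow-spread ones of LP/J, CBA/J and C57Bl/6J, where members were low (-0.51, -0.34 and -0.33). The date with the highest median (0.31) held narrow-spread vehicle arrays of AKR/J, DBA/2J and SWR/J and an isoniazid one of FVB/NJ. Medians by date were not computed without these arrays. Within dates, 18 members kept the sign of their pooled change on all 10 dates and 34 on at least 9. Psmc4 ranged from 0.19 to 0.42 over the dates and Psmd14 from 0.04 to 0.57, while Psmd5 had its pooled sign on only 5. With scan date as a term in the fit, 34 members again rose.

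The strains varied more than the roles. The mean change of the members had an SD of 0.19 over the 31 strains, against 0.06 to 0.13 for the differences between roles. Both include the spread between animals. The median change over the 39 members was above 0 in 24 of 31 strains and below 0 in 7. It was highest in NZW/LacJ (0.65, all 39 members above 0), DBA/2J (0.47, all 39 above 0) and C57BR/cdJ (0.39, 35 above 0). It was lowest in CBA/J (-0.13, 3 above 0), NOR/LtJ (-0.13, 5 above 0) and C57Bl/6J (-0.12, 7 above 0). The median over all genes stayed between -0.03 and 0.03 in every strain.

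**Figure D3:**
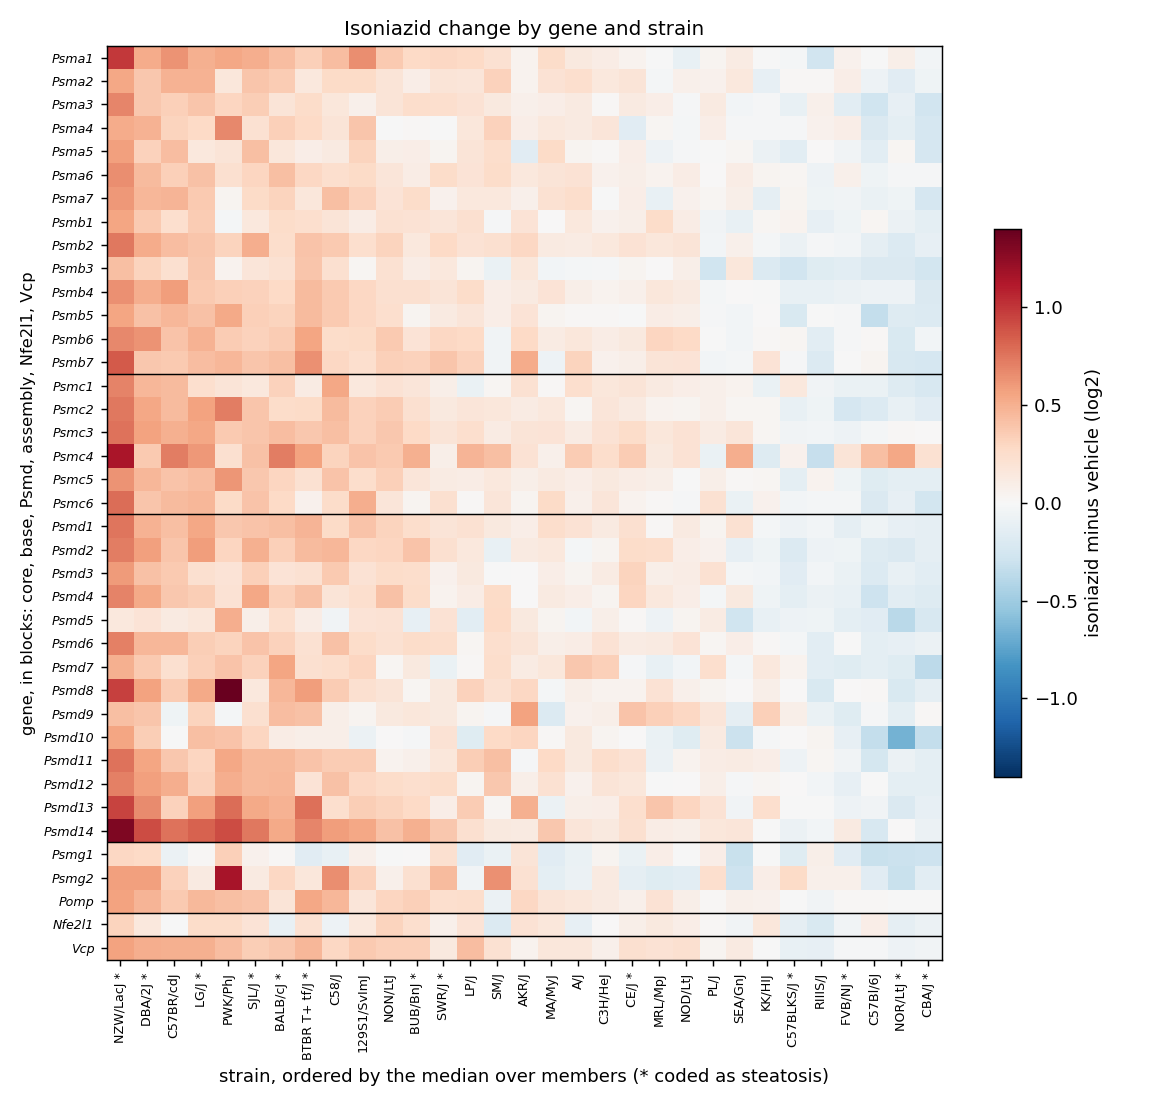
Isoniazid minus vehicle, in log2 units, for each of the 39 genes (rows, in blocks by role) in each of 31 strains (columns, from the highest to the lowest median over the genes, with an asterisk on strains coded as steatosis). Red is higher and blue lower under isoniazid. NZW/LacJ is red in all rows, CBA/J is blue in all but 3, and Psmc4 stays red in NOR/LtJ and C57Bl/6J, where most rows are blue.

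The narrow-spread arrays bear on this order. In the 7 strains with a median below 0, 5 narrow arrays were isoniazid arrays and 1 a vehicle array. In the 6 strains with the highest medians, 1 was an isoniazid array and 5 were vehicle arrays. Without these arrays the median became 0.60 in NZW/LacJ, 0.40 in DBA/2J and 0.41 in C57BR/cdJ. It became -0.04 in CBA/J, -0.01 in C57Bl/6J and 0.05 in NOR/LtJ, where 27 members were then above 0. LP/J went from 0.17 to 0.35 and SEA/GnJ from 0.01 to 0.16. Medians were then below 0 in 6 strains, and the members that rose over the strains again numbered 34.

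Some markers of other cell types changed as well. Over the strains, 11 of 16 macrophage markers fell and 0 rose (limma), and the mean of that list changed by -0.20 ± 0.40 (SD over 31 strains). It was 0.05 in NZW/LacJ, -0.11 in DBA/2J and -0.44 in C57BR/cdJ, the strains with the highest proteasome medians, and -0.64 in CBA/J, -0.71 in NOR/LtJ and -0.09 in C57Bl/6J, those with the lowest. The part of this difference in the proteasome values was not tested. Of 7 hepatocyte markers, the urea cycle enzyme Cps1 rose by 0.17 and the transcription factor Hnf4a fell by 0.20, and 5 did not pass. None of 9 T and NK cell genes passed, 2 of 10 endothelial, 1 of 10 stellate, 1 of 5 bile duct and 3 of 7 B cell genes fell, and 0 rose. Over all genes, 9.85% were called lower and 10.2% higher. Against that share, the counts of the T and NK cell, endothelial, stellate and bile duct lists do not show a change of those cell types.

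Within single strains, 161 pairs of strain and member were called higher (limma fit of all strain and treatment groups, adjusted over all genes within each strain). They came from 12 strains. NZW/LacJ had 33 members higher (9.32% of all genes were called higher there), DBA/2J 27 (4.56%), PWK/PhJ 21 (10.4%), LG/J 17 (2.24%), C57BR/cdJ 15 (0.661%), C58/J 15 (3.63%), BTBR T+ tf/J 11 (1.13%) and BALB/cJ 10 (0.926%). The other 4 strains were SJL/J with 8 (0.347%), AKR/J with 2 (1.90%), 129S1/SvImJ with 1 (0.253%) and LP/J with 1 (0.347%). NZW/LacJ had the highest change of all strains for 31 members and PWK/PhJ for 5 (29 and 4 without the narrow-spread arrays). The 6 members that did not pass in NZW/LacJ were Psmd5, Psmd9, Psmd10, Psmg1, Psmg2 and Nfe2l1.

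These counts changed to different degrees when animals were left out. Each such run had fewer arrays in every strain, so the loss of arrays and the influence of 1 animal cannot be told apart. When animals of 1 number were left out of all groups, the count stayed between 30 and 34 in NZW/LacJ, 14 and 19 in PWK/PhJ and 16 and 25 in DBA/2J. It fell to as few as 0 in LG/J, 0 in BALB/cJ, 1 in C58/J, 3 in C57BR/cdJ and 6 in BTBR T+ tf/J. Without the narrow-spread arrays it was 33 in NZW/LacJ, 24 in DBA/2J, 17 in PWK/PhJ, 13 in LG/J, 21 in C57BR/cdJ, 5 in C58/J, 16 in BTBR T+ tf/J and 18 in BALB/cJ.

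One pair was called lower. Psmd10 in NOR/LtJ had isoniazid values of 5.94, 6.67, 4.85 and 6.47 against vehicle values of 6.65, 6.69, 6.61 and 6.62. The change was -0.66 ± 0.20 (SE; limma adjusted p = 0.0382; 3.63% of genes were called lower in this strain). The 5.94 and 4.85 came from narrow-spread arrays, and without them the change was -0.07.

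The isoniazid response differed between strains for 32 of 39 members (limma F test of 30 interaction contrasts, adjusted p under 0.05), where 17.0% of all genes passed. The 7 that did not were Psma3, Psmc4, Psmd5, Psmd9, Psmd10, Psmg1 and Nfe2l1. So Psmc4, among the largest mean changes, showed no difference between strains that passed, although its strain values ran from -0.32 in RIIIS/J to 1.14 in NZW/LacJ. Its change in a single strain was less precise (SE 0.21 in BALB/cJ, against 0.09 for Psmb4). The missed call therefore does not show a uniform response.

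Psmd8, a lid subunit, had the largest F of the members (8.20, adjusted p = 5.81e-17, limma) and ranked 3rd among all genes. Its highest change was in PWK/PhJ. There the vehicle animals had 10.04, 9.79, 10.19 and 10.08, and the isoniazid animals 10.77, 11.81, 11.46 and 11.62. The groups did not overlap. The change was 1.39 ± 0.11 (SE; limma adjusted p = 1.14e-21), and the next highest was 0.96 in NZW/LacJ. Over all strains the median change of Psmd8 was 0.14. Without vehicle animal 2, the narrow-spread array of this strain, the change was 1.31 ± 0.11 (limma adjusted p = 1.07e-19). Its single probe set leaves no second measure.

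Psmd14 came next (F = 5.79, adjusted p = 8.88e-12, limma). In NZW/LacJ it had vehicle values of 8.35, 8.16, 8.36 and 8.22 and isoniazid values of 9.47, 9.77, 9.56 and 9.51. Every treated animal was above every vehicle animal by more than the spread within either group, and the change was 1.30 ± 0.15. Psmd14 was called higher in 9 strains, as was Psma1, more than any other member. Psmb4, a beta subunit without an active site (F = 5.05, adjusted p = 5.78e-10, limma), had 10.75, 10.52, 10.64 and 10.67 against 11.18, 11.46, 11.19 and 11.32 in the same strain, a change of 0.64 ± 0.09. Psmb5 (F = 4.67, adjusted p = 4.97e-09, limma) had 9.52, 9.25, 9.41 and 9.46 against 9.83, 10.16, 9.81 and 10.05, a change of 0.55 ± 0.10. Neither overlapped. Vehicle animal 2 of NZW/LacJ was on a narrow-spread array and had the lowest value of each of these genes. Without it the changes were 1.27 ± 0.14 for Psmd14, 0.60 ± 0.09 for Psmb4 and 0.50 ± 0.10 for Psmb5 (limma adjusted p = 1.63e-12, 1.57e-07 and 4.48e-05).

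**Figure D4:**
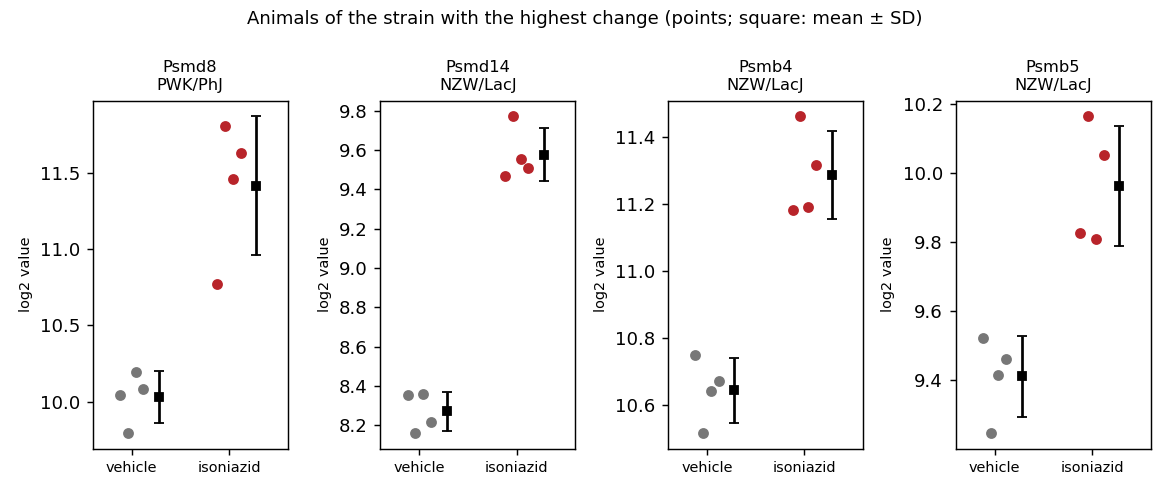
Log2 values of single animals for the 4 genes with the largest interaction F, in the strain with the highest change (4 vehicle animals in grey, 4 isoniazid animals in red, black square and bar for mean and SD). The groups do not overlap in any panel, and 1 isoniazid animal of PWK/PhJ (10.77) lies well below the other 3 (11.46 to 11.81) for Psmd8.

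The strain changes of the subunits were correlated with each other. Over the 561 pairs of the 34 subunits, the median Pearson correlation of strain changes was 0.78 (Spearman 0.75), and it was 0.78 both within and between roles. The strain values share arrays, and without the narrow-spread arrays the median was 0.71. A member's median correlation with the genes outside the family lay near 0 for every member (between -0.06 and 0.02). Because RMA equalises arrays, such a median tends to lie near 0 for any gene, so it gives no background for the 0.78. The subunits most like the rest were Psmc3 (0.87), Psmb4 (0.86) and Psmd1 (0.86), and those least like it were Psmd9 (0.40) and Psmc4 (0.53). In BALB/cJ the SE of the change was 0.16 for Psmd9 and 0.21 for Psmc4, against 0.09 for Psmb4. Psma3, with an SE of 0.16 there, had a median correlation of 0.81. The part of precision in these correlations was not tested. Around the means of their groups, the 235 single arrays gave a median of 0.56, and the vehicle strain means gave 0.46. These are descriptions without a p-value.

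The changes of Nfe2l1 were compared with those of the subunits and assembly factors over the 31 strains. Whether each of these genes is a target of Nfe2l1 was not tested. Of 37 subunits and assembly factors, 27 passed by Pearson and 26 by Spearman correlation (permutation test with 100000 resamples, two-sided, adjusted over the 37 relations). The lowest Pearson r among these 27 was 0.38. Of the 18145 other genes measured, 12.2% had an r of 0.38 or more and 5.47% one of -0.38 or less. The median r was 0.50 over the 37 and 0.02 over all those genes. Without the narrow-spread arrays, 22 of the 37 and 5.98% of all genes had an r of 0.38 or more. It was highest for Psmd13 (r = 0.69, rho = 0.69), Psmb6 (r = 0.68, rho = 0.68) and Pomp (r = 0.68, rho = 0.71), each with an adjusted permutation p of at most 0.000462. For Psmd13 and Psmb6 the raw p of 1e-05 is the smallest that these resamples can give. It was lowest for Psma2 (r = 0.25, rho = 0.22, permutation p = 0.179, adjusted 0.184) and Psmg2 (r = 0.16, rho = 0.14, permutation p = 0.383, adjusted 0.383).

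Without RIIIS/J and SM/J, 2 strains far from the median change of Nfe2l1, the r of the 5 genes was 0.67, 0.62, 0.61, 0.28 and 0.28 in the same order, with a median of 0.51 over the 37. With scan date as a term 33 passed, and without the narrow-spread arrays 20 passed with a median r of 0.44. The strains with high medians over the members varied in Nfe2l1. C57BR/cdJ had a median of 0.39 over the members and -0.01 for Nfe2l1, and BALB/cJ 0.32 and -0.11. The SE of the Nfe2l1 change was 0.13 in both. Of the other strains ranked 1 to 7, Nfe2l1 changed by 0.31 in NZW/LacJ, 0.15 in DBA/2J and 0.26 in LG/J. It changed by 0.25 in PWK/PhJ and 0.20 in SJL/J.

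**Figure D5:**
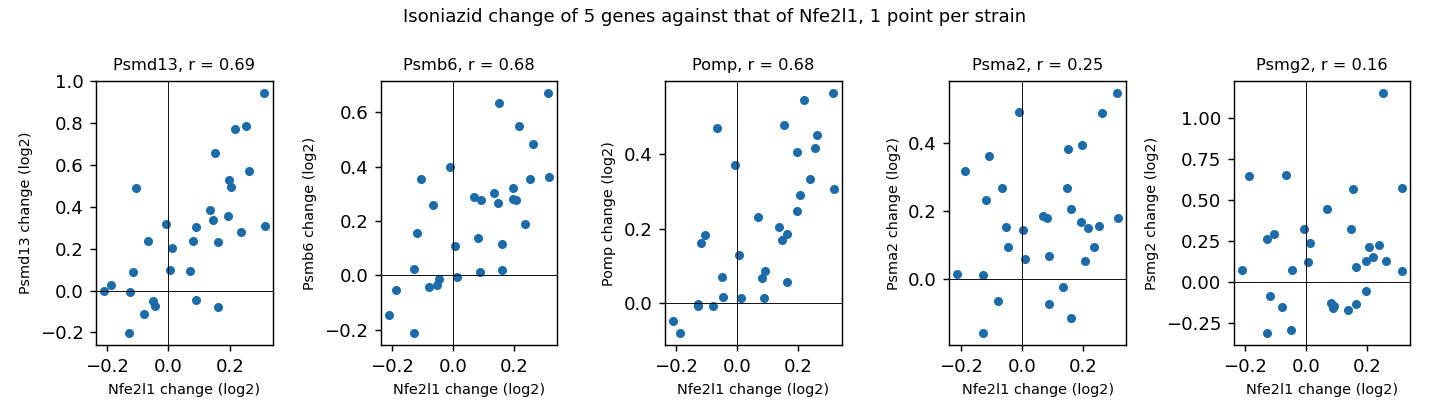
Isoniazid change of 5 genes against that of Nfe2l1 in 31 strains (1 point each, both axes in log2 units), for the 3 highest and the 2 lowest correlations. Psmd13, Psmb6 and Pomp climb with Nfe2l1, and Psma2 and Psmg2 scatter with no clear slope.

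Without the drug, the levels of most members also differed between strains. The limma F test over 31 vehicle groups passed for 38 of 39 members, against 53.4% of all genes, and Psmd10 was the exception. SM/J was the highest strain for 11 members. LG/J was lowest for 9, MRL/MpJ for 6, NZW/LacJ for 6 and PWK/PhJ for 5. LG/J, NZW/LacJ and PWK/PhJ each held 1 narrow-spread vehicle array. Without the narrow-spread arrays LG/J was lowest for 0, MRL/MpJ for 14, NZW/LacJ for 4 and PWK/PhJ for 4, and SM/J was highest for 9. A sequence variant under a probe and a difference in RNA cannot be told apart in such a comparison.

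The largest F was that of Psma7 (10.93, adjusted p = 1.28e-25, limma). Its vehicle animals in PWK/PhJ had 8.64, 8.78, 8.64 and 8.79, against 10.33, 10.32, 10.27 and 10.22 in SM/J, and the next lowest strain had a mean of 9.71. PWK/PhJ stood alone on this probe set. On the other probe set of Psma7 PWK/PhJ had 9.40 and ranked 27th from the lowest of 31 strains, so the low value did not recur. Psmd9 (F = 10.18, adjusted p = 4.61e-24, limma) ran from 7.87, 8.59, 8.44 and 8.11 in AKR/J to 9.83, 9.78, 9.92 and 9.32 in C57BR/cdJ. On a dimmer probe set AKR/J was 4th from the lowest and C57BR/cdJ 2nd from the highest, and on the dimmest of its 3 they were 5th and 7th. Without the narrow-spread arrays the lowest and highest strains were the same for both genes, at 8.69 and 10.28 for Psma7 and 8.38 and 9.71 for Psmd9.

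Psmd4, the ubiquitin receptor of the base (F = 8.94, adjusted p = 2.40e-21, limma), ran from 9.90, 9.87, 9.88 and 9.61 in LG/J to 10.83, 11.02, 10.80 and 11.29 in C58/J. On its second probe set LG/J was 2nd from the lowest and C58/J highest. On the third, dimmer one (mean 5.45) LG/J was 16th from the lowest and C58/J 7th from the highest. Without the narrow-spread arrays the mean of LG/J on the first probe set was 9.88, MRL/MpJ was lowest, and C58/J was highest at 11.05. Psmb6 (F = 8.00, adjusted p = 3.53e-19, limma) ran from 9.22, 9.24, 9.44 and 8.97 in DBA/2J to 10.12, 10.14, 10.28 and 10.13 in MA/MyJ. Without the narrow-spread arrays DBA/2J was still lowest (9.30) and MA/MyJ highest (10.17). Neither pair of strains overlapped.

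The strains coded as steatosis did not differ from the others in any member by the test. For the isoniazid change 0 of 39 members passed (0% of all genes did; limma, 13 against 18 strains), and 0 had an unadjusted p under 0.05, against 2.71% of all genes. The 3 smallest p belonged to Psmc4, Psmd2 and Psmd14. Psmc4 changed by 0.44 ± 0.29 (SD) in 13 steatosis strains and 0.25 ± 0.26 in 18 others, a difference of 0.19 with an interval from -0.0022 to 0.38 (limma adjusted p = 1.00). Psmd2 differed by 0.15 (-0.03 to 0.33) and Psmd14 by 0.21 (-0.04 to 0.45). The median difference over the members was 0.06. The upper bound of each of these intervals was above the gene's mean change over all strains. Strains coded as steatosis stood at both ends of the order, with NZW/LacJ and DBA/2J first and NOR/LtJ and CBA/J last.

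In vehicle liver, too, 0 members passed (0% of all genes did; limma) and 0 had an unadjusted p under 0.05, against 4.06% of all genes. Psma6 had the smallest p, with 10.67 ± 0.12 in steatosis strains and 10.76 ± 0.13 in the others, a difference of -0.09 (-0.18 to 0.01, limma adjusted p = 0.988). Psmd4 differed by -0.14 (-0.33 to 0.05) and Psmd12 by -0.08 (-0.18 to 0.03).

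Related genes outside the family changed in part. For comparison, 10.2% of all genes were called higher and 9.85% lower. Of 14 other proteasome factors, 6 rose and 0 fell (limma), among them the shuttle protein Rad23b (0.23 ± 0.04), the proteasome inhibitor Psmf1 (0.10 ± 0.02) and the proteasome-bound thioredoxin Txnl1 (0.12 ± 0.03). Of the 5 measured genes of the immunoproteasome and its activator, only Psme3, which forms the nuclear activator ring, rose (0.25 ± 0.05). Psmb8, the interferon-induced counterpart of Psmb5, fell by 0.27 (SE 0.06), from 7.96 to 7.69, and Psme1, an interferon-induced activator subunit, fell by 0.08 (SE 0.03). Psmb10 (-0.06 ± 0.04) and Psmb9 (-0.07 ± 0.08), the counterparts of Psmb7 and Psmb6, did not pass, and Psme2 was not analysed here. In the same livers 15 of 18 interferon-induced genes fell and 0 rose, Rsad2 by 0.78.

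Among 18 cofactors of Vcp and genes of degradation from the endoplasmic reticulum, 5 rose and 0 fell (limma). Nploc4 and Ufd1, the dimer that brings ubiquitinated clients to Vcp, rose by 0.17 ± 0.03 and 0.20 ± 0.04, and the cofactor Nsfl1c by 0.15 ± 0.04. Of 11 genes that process or partner Nfe2l1, 0 passed; the closest were the ligase subunit Btrc (0.07, limma adjusted p = 0.0567), the paralog Nfe2l2 (0.09, 0.0575) and the partner Mafk (0.08, 0.0877). Of 6 listed genes for ubiquitin and its activating enzymes, only Uba6 was among the genes analysed here, and it did not pass (-0.03 ± 0.05). Of 20 autophagy genes, 3 rose and 4 fell, where 10.2% of all genes were called higher and 9.85% lower. Against those shares, the autophagy counts do not show a change of that list. Map1lc3a, which codes for a coat protein of the autophagosome, fell by 0.28 and the lysosomal membrane protein Lamp1 fell by 0.11. Atg5 of the conjugation machinery rose by 0.14.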

How the data were processed

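Total liver RNA was measured on Affymetrix arrays in 235 animals. The values used are the deposited log2 signals. Per the submitters' processing notes, the authors made them with RMA in Affymetrix Power Tools. Its version, the chip definition and the genome build were not given in the sources. RMA equalises the distributions of arrays, so a shift shared by most genes would not be seen, and it tends to understate fold changes. The number of arrays limits the precision.

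Of 44721 probe sets, 34717 carried 1 symbol in the platform annotation and gave 18146 genes, each read from its brightest probe set on average. The 39 members all matched RefSeq by Entrez number. Tests were run in R 4.3.3 with limma 3.58.1, with Benjamini-Hochberg adjustment over all genes at 0.05, two-sided. For the effect over strains, the replicate was the strain (31 differences of means); a fit of the strain and treatment groups gave within-strain changes and F tests. Animals are separate mice. Members named in detail were, per role, up to 4 with the largest and 1 with the smallest moderated t, and the largest or smallest by the other tests. The members and lists were chosen with earlier results of these data known. The fit was also run on simulated data with independent noise for each gene and array. Those data lacked the shared shift of the narrow-spread arrays, so that run says nothing about it. Same-numbered vehicle and isoniazid animals did not pair (median correlation -0.01 over 111 pairs, 0.01 over 333 pairs of different number). Alternatives covered scan date, probe sets, centring, filters, narrow-spread arrays and left-out animals and strains.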

Additional observations from a re-analysis of the deposited data

Results flagged for a closer look

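The response of 32 of the 39 members to isoniazid differed between strains by the interaction test (limma, 17.0% of all genes). The interaction adjusted p was 5.81e-17 for Psmd8, 8.88e-12 for Psmd14, 5.78e-10 for Psmb4 and 4.97e-09 for Psmb5.

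In 21 groups of 4 animals checked for these named members, 2 held an animal farther from the rest than Dixon's 95% limit, and chance gives about 1 in 20. Psmb6 in vehicle MA/MyJ was 10.2777 in 1 animal and 10.12 to 10.14 in the other 3. Psmd4 in vehicle LG/J was 9.60975 in 1 animal and 9.87 to 9.90 in the other 3, and that animal's array was among the narrow-spread ones.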

How the results depend on the processing

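Over strains, the count of members that rose was 28 to 35 of 39 under 47 of 48 alternatives and that of members that fell was 0 under all 48. The 28 came from leaving out NZW/LacJ, DBA/2J and C57BR/cdJ, an alternative chosen after seeing the data, as were the one without scan date 5 (34) and those for single strains. Asking also for a change of at least 1.2-fold left 3 members, Psmd14, Psmc4 and Psmd13, by construction. Leaving out animals of 1 number or 1 strain gave 29 to 35. Psmg1 changed sign without animals numbered 1 (0.0094; range -0.045 to 0.0094 over left-out animals and strains), and Psmd10 without animals numbered 4 (-0.00048; range -0.00048 to 0.060). Neither passed with all animals. Psmg2 lost its call under 6 of 47 alternatives, with an adjusted p of up to 0.164 (limma), and Nfe2l1 gained one under 4. The interaction passed for 26 to 32 members, the vehicle difference for 31 to 38 and the steatosis contrasts for 0. With animal number as a replicate block, 34 members rose, the interaction passed for 32 and the vehicle difference for 38, and no count of calls moved by over 1.5 times. With strain as the replicate and all arrays, the smallest change that passed among the members was that of Psma5 (0.10 on the log2 scale). Outside the family smaller changes passed, such as that of Psme1 (-0.08).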
